A study of Zea mays with 18 samples.

Results

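The roots of the maize inbred lines Lo5 and T250 were compared at 0 d, at the moment when the seedlings entered the nutrient solution without N. The comparison rests on 6 of the 18 arrays of the series, 3 of Lo5 and 3 of T250, chosen by their line and day. Seeds of both lines were soaked for 24 h, germinated for 4 d in the dark and kept for 48 h in 0.5 mM CaSO4, the same for both lines and before the nutrient solution. Lo5 is described in the study as a line with high N use efficiency (NUE) in the field and T250 as one with low NUE. RNA of the roots of 3 seedlings was pooled for each sample, and the growth experiment was carried out 3 times. The question of the comparison is how far the roots of the 2 lines differed at 0 d, which the study takes as the start of N deprivation. The CaSO4 solution is listed without N as well, so 0 d is not a state supplied with N.

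Maize takes up nitrate and ammonium through transporters of the root surface, and nitrate reductase, nitrite reductase and glutamine synthetase turn them into amino acids. Maize roots also make benzoxazinoids, terpenes and lignin precursors, which serve in defence and in the wall. Inbred lines of maize are known to differ widely in gene sequence and in gene content. Each transcript was read by a single probe designed on the line B73, so a lower level of a transcript and a changed sequence under its probe cannot be told apart in these data, nor can fewer cells of a type and less RNA per cell.

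Every array carried 39372 probes, 1 for each transcript. On the arrays of 0 d between 28868 and 31634 probes were well above background, and 2323 to 4827 spots per array were set aside because the scanner software had marked them as uneven or as outliers. Levels are given as log2 signals, with the 75th percentile of each array at 0. Arrays of the same line correlated with r between 0.892 and 0.963 across 17834 transcripts, and arrays of different lines with r between 0.826 and 0.868. These are correlations across transcripts, which are not independent. On an index made from 2003 transcripts that differ between the lines at 4 d, with T250 at 0 and Lo5 at 1, the Lo5 arrays of 0 d stood between 0.894 and 0.950 and the T250 arrays between 0.078 and 0.121, so all 6 carried the line of their label. The array labelled Lo5 1 d replicate 3 stood at 0.161, among the T250 arrays, and enters only the values at 1 d below. Of 11 root markers, 6 were on in all Lo5 arrays and 8 in all T250 arrays, while bx1 and CASP1 were on in none. Of 18 leaf markers 7 were on in all Lo5 arrays and 6 in all T250 arrays, and of 34 seed markers 14 in each line. On the linear scale, with the 75th percentile at 1, the root markers summed to 47.6 to 80.6 in Lo5 and 29.0 to 62.9 in T250, the leaf markers to 0.848 to 13.2 in Lo5 and 10.3 to 14 in T250, and the seed markers to 1.17 to 1.83 in Lo5 and 1.98 to 3.86 in T250. The high leaf sums rest mainly on pdk1, with −2.46, −0.63 and 3.64 in Lo5, against 3.07, 3.65 and 3.45 in T250, which was not tested. The called leaf marker was rbcS (GRMZM2G113033_T01) and the called seed marker glb3. Both were lower in Lo5, with log2 ratios of −1.20 and −3.66. The part of these markers in the results was not tested. Replicate 1 of both lines lay on a single slide and the other arrays of 0 d on a slide each apart from the other line, so the difference between the first values given for each line is the one within a slide.

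Tests were run on transcripts that 1 of the lines or both showed well above background on each of its 3 arrays, given 2 or more unmarked spots in each line. limma found 4245 of 26065 transcripts to differ (16.3%) with a Benjamini-Hochberg adjusted p not above 0.05 and a log2 ratio, Lo5 over T250, of 1 or more in either direction. Of these, 2000 were higher in Lo5 (7.67% of those tested) and 2245 lower (8.61%). Over unmarked spots, of which some transcripts had 2 per line, the values of Lo5 and T250 did not overlap for any of the 4245, nor for 36.4% of all transcripts tested. With the marked spots included, 43 of the 4245 overlapped. The threshold itself is no border in the data: GRMZM2G439589_T01 was called with a ratio of 2.01-fold, higher in Lo5, and GRMZM2G438895_T01 with one of 2.00-fold, lower in Lo5, while GRMZM2G043843_T01 and GRMZM2G124209_T01 lay just outside, at log2 ratios of −0.999 each.

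The transcripts fell into classes by the arrays on which they were well above background, for which "on" is used here. In all, 26151 transcripts were on in both lines, meaning on all 6 arrays, 464 were on in Lo5 only, 725 on in T250 only, 1950 on all Lo5 arrays and some T250 arrays, 958 on all T250 arrays and some Lo5 arrays, and 5063 on none. The remaining 4061 were on all 3 arrays of neither line. The transcripts on in both lines have a level on each side and are given first.

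Of the 22053 transcripts on in both lines that were tested, 2472 were called (11.2%), 1174 higher in Lo5 (5.32%) and 1298 lower in Lo5 (5.89%). Those higher in Lo5 had a median log2 ratio of 1.95, or 3.87-fold, and those lower a median size of 2.11, or 4.30-fold. A log2 ratio of 3 or more was reached by 231 transcripts higher in Lo5 and 297 lower in Lo5, and one of 5 or more by 27 higher and 49 lower. The ratios of this class ran from −8.26 to 10, both ends being transcripts with no name here. Leaving out single arrays moved these counts most when Lo5 replicate 2 was left out, with 2599 calls in all and 1184 among the transcripts on in both lines. The size of a ratio depends on how the background is taken off: with the normexp correction, 46 of the 79 called transcripts that are named by rule had a log2 ratio over 1.5 times smaller.

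**Figure D1:**
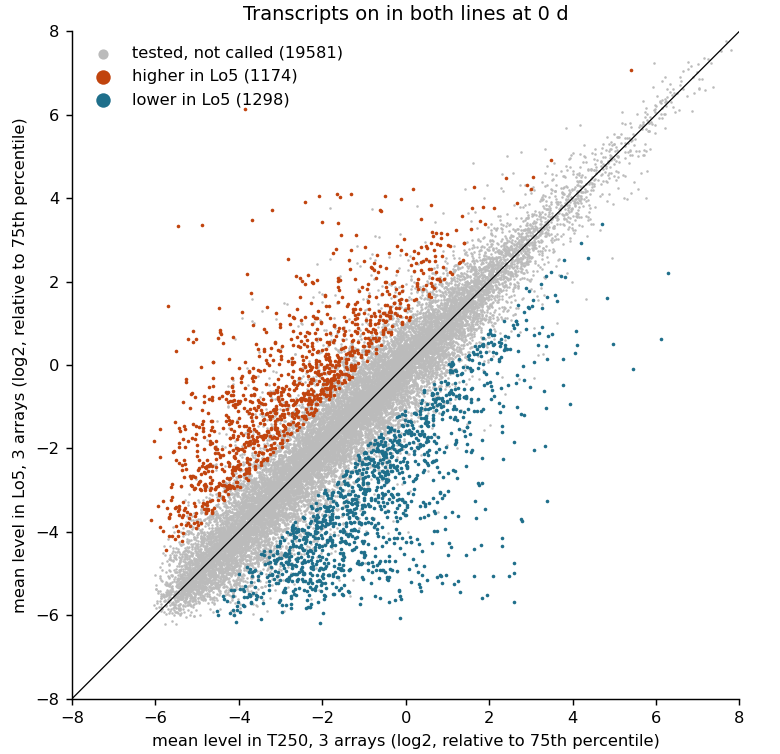
Mean level of each tested transcript on in both lines at 0 d, with T250 (x axis) and Lo5 (y axis) both on the log2 scale with the 75th percentile of each array at 0, as means over the unmarked spots of 3 arrays. The 1174 transcripts called higher in Lo5 lie above the line of equal level, the 1298 called lower lie below it, and the rest were not called.

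Of the named transcripts with the highest and lowest ratios, some carry names only from the study's tables. The study drew those tables from ratios to the 0 d arrays of 1 line. On the high side these are the terpenoid cyclase, glyoxalase, CYP93D1, SPX3 and lipid-transfer transcripts. On the low side they are allene oxide synthase, the cupin, XTH32, CCR1 and the LEA glycoprotein. Their place here is not independent evidence. Among the transcripts on in both lines, unmarked on all 6 arrays and carrying a name, the highest ratio belonged to a terpenoid cyclase family transcript (GRMZM2G445854_T01), whose family makes the ring skeletons of terpenoids. Its levels were 2.52, 1.23 and 1.44 in Lo5, against −4.10, −4.92 and −2.11 in T250, a log2 ratio of 5.44 ± 0.75 (SE, n = 3 each, adjusted p = 0.00334). Every Lo5 value lay far above every T250 value, and the call was lost when all 18 arrays or a slide block entered the fit. At 4 d its ratio was 3.05 (adjusted p = 0.13). For prpo2 (GRMZM2G364901_T01) Lo5 had 0.72, 0.70 and 0.55, against −1.10, −6.03 and −6.34 in T250, a log2 ratio of 5.15 ± 1.33 (adjusted p = 0.0419). T250 replicate 1 thus lay well above the other T250 arrays, and the call was lost in 9 of 16 alternatives, among them each fit without T250 replicate 2 or 3 or any 1 of the Lo5 arrays, with adjusted p reaching 0.170.

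A transcript of the glyoxalase family (GRMZM2G081268_T01) had −0.16, −0.53 and −0.50 in Lo5, against −5.16, −5.39 and −5.23 in T250, with a log2 ratio of 4.86 ± 0.25 (adjusted p = 8.57e-05). Both groups were tight, and the difference was 29.1-fold, but over the alternatives the log2 ratio was 3.03 at the smallest. The glutathione S-transferase gst13 (GRMZM2G126781_T01), of an enzyme family that couples glutathione to other compounds, had 1.15, 0.95 and 0.76 in Lo5, against −3.31, −3.79 and −3.86 in T250 (log2 ratio 4.61 ± 0.28, adjusted p = 0.000127). CYP93D1 (GRMZM2G167336_T01), a cytochrome P450, had 2.29, 2.62 and 3.15 in Lo5, against −2.13, −1.99 and −1.14 in T250 (log2 ratio 4.44 ± 0.38, adjusted p = 0.000448). For each of these the lowest Lo5 array stood more than 3 log2 units above the highest T250 array.

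CST1 (GRMZM2G153358_T01) had 4.56, 3.54 and 3.05 in Lo5, against 0.12, −0.61 and −1.38 in T250 (log2 ratio 4.34 ± 0.53, adjusted p = 0.00199). RSZ21 (GRMZM2G151923_T01), a splicing factor rich in serine and arginine, had −0.65, −0.57 and −1.06 in Lo5, against −4.65, −4.87 and −5.62 in T250 (log2 ratio 4.29 ± 0.34, adjusted p = 0.000326). SPX3 (GRMZM5G828488_T01), of a family tied to phosphate sensing, had −0.98, −0.95 and −0.37 in Lo5, against −3.89, −5.33 and −4.71 in T250 (log2 ratio 3.88 ± 0.42, adjusted p = 0.00124). In all 3 the lines were apart on every array. Over the alternatives the log2 ratio was 2.50 at the smallest for RSZ21 and 2.26 for SPX3. The cellulose synthase subunit CesA-8 (GRMZM2G177631_T01) had 0.61, 1.06 and 1.3 in Lo5, against −2.75, −2.77 and −2.81 in T250 (log2 ratio 3.76 ± 0.28, adjusted p = 0.000247). A lipid-transfer protein family transcript (GRMZM2G170044_T01) closed this set with −0.01, 0.49 and 0.13 in Lo5, against −4.05, −3.49 and −3.01 in T250 (log2 ratio 3.72 ± 0.35, adjusted p = 0.000615). The T250 values of CesA-8 were within 0.1 log2 units of each other.

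In the other direction, the annexin Ann5 (GRMZM2G172834_T01), of a family of calcium-dependent membrane-binding proteins, had −3.67, −5.09 and −5.51 in Lo5, against 3.0, 1.84 and 2.96 in T250, a log2 ratio of −7.35 ± 0.57 (SE, n = 3 each, adjusted p = 0.000281). This is 164-fold lower in Lo5, and at 4 d the ratio was −9.53. Allene oxide synthase (GRMZM2G168404_T01), an early enzyme of jasmonate synthesis, had −5.44, −5.76 and −5.10 in Lo5, against 1.36, 1.12 and 1.41 in T250 (log2 ratio −6.73 ± 0.28, adjusted p = 5.43e-05). TUBC (GRMZM2G073888_T01) had −5.0, −5.27 and −5.68 in Lo5, against 0.88, −0.17 and 0.34 in T250 (log2 ratio −5.67 ± 0.36, adjusted p = 0.000151). For allene oxide synthase and TUBC no Lo5 array exceeded a level of −5, while T250 had both near the 75th percentile. Over the alternatives their log2 ratios were −4.41 and −3.45 at the smallest.

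A transcript of the cupin family (GRMZM2G072965_T01) had −5.23, −6.02 and −5.61 in Lo5, against −1.42, −1.66 and 2.77 in T250 (log2 ratio −5.52 ± 1.14, adjusted p = 0.0183). T250 replicate 3 was far above the other T250 arrays, and the call was lost without Lo5 replicate 2 or 3 and in the methods' t-test, with adjusted p up to 0.111. MBF1.2 (GRMZM2G101480_T01), a transcriptional coactivator of the multiprotein bridging factor family, had −5.45, −5.51 and −5.19 in Lo5, against −0.02, −0.34 and −0.12 in T250 (log2 ratio −5.22 ± 0.25, adjusted p = 7.1e-05). MAX1b (GRMZM2G023952_T01), a cytochrome P450 of strigolactone synthesis, had −1.29, −2.53 and −2.98 in Lo5, against 2.46, 2.40 and 2.10 in T250 (log2 ratio −4.59 ± 0.46, adjusted p = 0.000836). Both were lower in Lo5 on every array, and MAX1b was 24.0-fold lower. The transcript named calmodulin (GRMZM2G444621_T01), after the calcium sensor, had −5.29, −4.60 and −4.76 in Lo5, against 0.04, −0.31 and −0.85 in T250 (log2 ratio −4.51 ± 0.34, adjusted p = 0.000273). An LEA glycoprotein family transcript (GRMZM2G094867_T01) had −4.92, −4.74 and −4.45 in Lo5, against −0.07, −0.59 and −0.51 in T250 (log2 ratio −4.31 ± 0.28, adjusted p = 0.00016). Over the alternatives the log2 ratio was −3.21 at the smallest for MBF1.2, −2.85 for calmodulin and −2.43 for the LEA glycoprotein transcript. The other 2 of this set, XTH32 and CCR1, stand with the wall below.

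**Figure D2:**
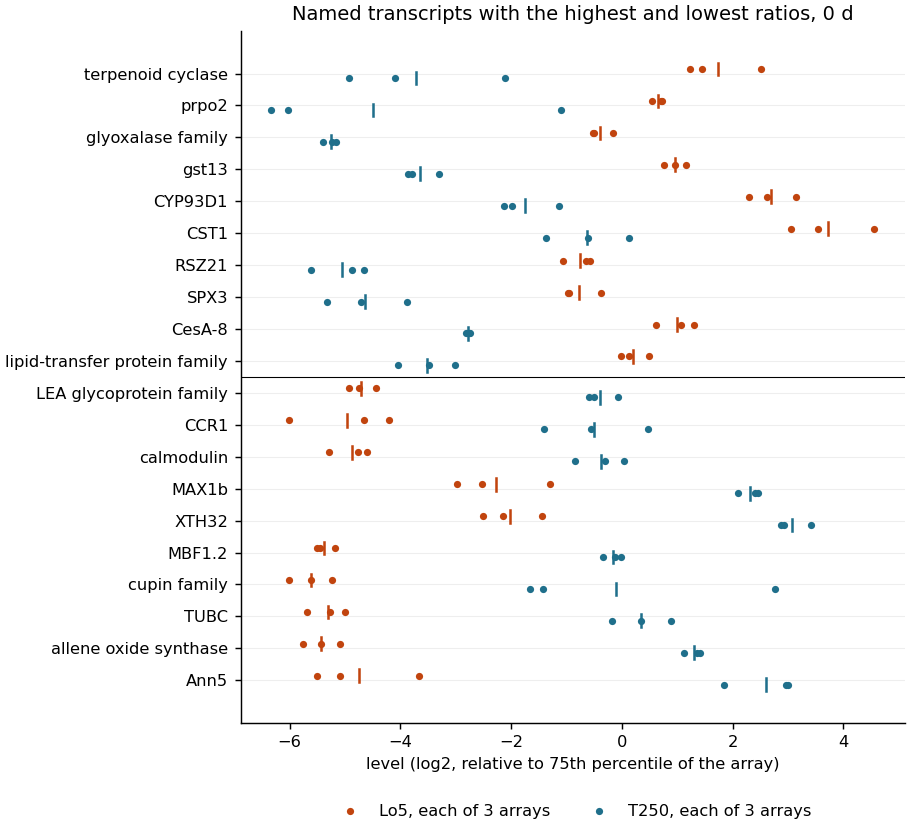
Level on each array of 0 d (log2, 75th percentile at 0) of the 10 named transcripts with the highest and the 10 with the lowest log2 ratio among those on in both lines, with Lo5 drawn above T250 in each row, points for arrays and bars for means. In every row the 3 Lo5 points are apart from the 3 T250 points, with single stray T250 arrays for prpo2 and the cupin family.

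Gene lists were counted separately for names from RefSeq and for names known only from the tables of the study. The study drew its tables from ratios to the 0 d arrays of 1 line, so the names known only from there were chosen partly on these samples and are not independent evidence. Of the 26065 transcripts tested 16.3% were called, their median ratio was 0.03 and their median size 0.51, which is the background for every list. That share includes transcripts not on in both lines, as do the lists, and was 11.2% among those on in both lines. A transcript named in no source stands in no list, and 3271 of the 39372 carried a name.

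Among the transcripts for nitrate and ammonium transport few could be tested. The 3 tested ones were NRT1.2, with a log2 ratio of −0.07, AMT3.3 and NRT1.5, and limma called 0 of them, with 0 at an unadjusted p under 0.05 and 0 in the methods' t-test. The nitrate transporter NRT1.5 (GRMZM2G044851_T01), which loads nitrate into the xylem in Arabidopsis, had 0.49, 2.31 and 1.08 in Lo5, against 0.94, 0.65 and 0.36 in T250, so that the lines overlapped (log2 ratio 0.64 ± 0.49, adjusted p = 0.479). AMT3.3 (GRMZM2G043193_T01), an ammonium transporter, had −0.85, −1.09 and −2.31 in Lo5, against −1.92, −5.39 and −2.40 in T250 (log2 ratio 1.82 ± 0.93, adjusted p = 0.271). The spread of the T250 arrays was wider than the difference. The high-affinity nitrate transporter NRT2.2 (GRMZM2G010251_T01) was on in both lines, with 0.81, 2.93 and 1.39 in Lo5, against 1.52, 1.92 and −0.41 in T250, but 3 of its 6 spots were marked and it was not tested.

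Nitrogen assimilation had 10 tested transcripts with RefSeq names, of which 3 were called, 2 higher and 1 lower in Lo5, with a median of −0.35. The plastid glutamine synthetase gln1 (GRMZM5G885867_T01, also named gs2) had −2.41, −2.03 and −2.88 in Lo5, against −5.80, −5.53 and −5.42 in T250, where it was above background on 2 of 3 arrays (log2 ratio 3.14 ± 0.31, adjusted p = 0.000806). A cytosolic glutamine synthetase, gln3 (GRMZM2G046601_T01), had −3.09, −2.76 and −2.54 in Lo5, against −4.43, −4.05 and −3.75 in T250 (log2 ratio 1.28 ± 0.30, adjusted p = 0.0305). Both were higher in Lo5 on every array, but the call of gln3 was lost in 10 of 16 alternatives, with adjusted p up to 0.157. Over the alternatives the log2 ratio of gln1 was 1.31 at the smallest. The nitrate reductase NNR1 (GRMZM2G568636_T01), which reduces nitrate to nitrite, was lower in Lo5 with −1.53, −1.22 and −1.97, against 0.42, 0.10 and 0.29 in T250 (log2 ratio −1.85 ± 0.29, adjusted p = 0.00632). Its difference was 3.60-fold at 0 d and its log2 ratio was −1.66 at 4 d.

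Of 4 further transcription factors that the study names, LBD37 and NAC47 were called and LBD38 and a TCP factor were not. LBD37 (GRMZM2G017319_T01), whose Arabidopsis counterpart represses N-responsive genes, had −2.43, −1.55 and −2.35 in Lo5, against 0.36, −0.72 and −0.75 in T250 (log2 ratio −1.74 ± 0.42, adjusted p = 0.034). LBD38 (GRMZM2G177110_T01), its close relative, had 4.86, 3.92 and 4.08 in Lo5, against 4.45, 3.88 and 4.18 in T250, a log2 ratio of 0.12 ± 0.34 (adjusted p = 0.887). The lines overlapped fully for LBD38, and the call of LBD37 was lost in 11 of 16 alternatives, with adjusted p up to 0.345. NAC47 (GRMZM2G011598_T01) had −2.92, −2.93 and −3.09 in Lo5, against −0.77, −1.59 and −0.45 in T250 (log2 ratio −2.04 ± 0.35, adjusted p = 0.00863). The TCP transcript AC234521.1_FGT006 had −3.50, −4.12 and −4.13 in Lo5, against −4.98, −4.70 and −5.30 in T250 (log2 ratio 1.08 ± 0.31, adjusted p = 0.0614). A further TCP transcript, GRMZM2G120151_T01, was on no Lo5 array and on 2 of 3 T250 arrays, and was not tested.

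For phosphate, magnesium and sulfate, 3 of 13 tested transcripts with RefSeq names were called, 2 higher and 1 lower in Lo5, and 1 of 7 known only from the study, lower in Lo5. All 3 with RefSeq names are named as like APS reductase, the enzyme that reduces activated sulfate. Whether they act on sulfate themselves is not known from these data. aprl2 (GRMZM2G087254_T01) had −1.08, −1.43 and −0.75 in Lo5, against −3.77, −3.47 and −3.53 in T250 (log2 ratio 2.50 ± 0.28, adjusted p = 0.00145). aprl4 (GRMZM2G159535_T01) lay the other way with −6.01, −6.31 and −6.72 in Lo5, where it was above background on 2 of 3 arrays, against −1.44, −2.02 and −2.80 in T250 (log2 ratio −4.26 ± 0.41, adjusted p = 0.000714, and −1.75 at the smallest over the alternatives). Members of 1 small family thus differed in opposite directions between the lines. aprl7 (GRMZM2G155073_T01) had −2.04, −2.54 and −2.56 in Lo5, against −6.13, −3.54 and −6.48 in T250, with only replicate 2 of T250 above background (log2 ratio 3.0 ± 0.76, adjusted p = 0.0392, lost in 10 of 16 alternatives).

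The sulfate genes named in the study were mixed. Cysteine synthase C1 (GRMZM2G036708_T01), of the enzyme family that builds cysteine, had −0.70, −0.34 and −0.59 in Lo5, against 1.49, 1.87 and 1.67 in T250 (log2 ratio −2.12 ± 0.30, adjusted p = 0.00633, with T250 replicate 2 marked, lost with the slide block). APS kinase (GRMZM5G845021_T01), which phosphorylates activated sulfate, had 0.09, −0.37 and −1.53 in Lo5, against −2.48, −3.38 and −2.79 in T250 (log2 ratio 1.93 ± 0.49, adjusted p = 0.0488, with Lo5 replicate 1 marked). APS kinase lost its call in 8 of 14 alternatives. The APS reductase transcript APR (AC189750.4_FGT004) had 0.38, 0.52 and 0.23 in Lo5, against −0.03, −0.84 and −1.02 in T250 (log2 ratio 1.01 ± 0.34, adjusted p = 0.0981).

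Of the phosphate transporters, PHT1;2 and PHT1;8 were on no array of 0 d in either line. PHT1;6 (GRMZM5G881088_T01) had −3.66, −3.96 and −3.64 in Lo5, against −5.60, −6.02 and −3.99 in T250, above background on 2 of 3 arrays (log2 ratio 1.45 ± 0.53, adjusted p = 0.128), and its ratio at 4 d was 6.58 (adjusted p = 0.00047). PHT1;13 (GRMZM2G070087_T01) had 3.60, 4.92 and 2.24 in Lo5, against 0.92, 2.21 and 1.18 in T250, and was not tested because 4 of its spots were marked. The magnesium transporter MGT3 (GRMZM2G064467_T01) had a ratio of −0.52 ± 0.32 (adjusted p = 0.378), and MGT7 was on no array. Of the iron acquisition transcripts 7 were tested and limma called 0, with 0 at an unadjusted p under 0.05 and 0 in the methods' t-test. Among them nas1, encoding a nicotianamine synthase, had 2.62, 0.80 and 2.94 in Lo5, against 2.88, 2.31 and −3.41 in T250, with a ratio of 2.14 ± 2.17 and T250 replicate 3 far below the rest. ys1, named YSL3 in the study, the transporter of iron bound to phytosiderophores, had 2.30, 2.42 and 2.75 in Lo5, against 2.57, 1.78 and 1.75 in T250, and was not tested because all of its spots were marked.

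Benzoxazinoids are defence compounds of maize roots, and 2 of 6 tested transcripts of their synthesis were called, both lower in Lo5. BX5 (GRMZM2G063756_T01), a cytochrome P450 of the pathway, had −7.47, −8.52 and −8.54 in Lo5, not well above background, against 1.57, 0.97 and 0.23 in T250, at least 172-fold lower in Lo5. Over the alternatives its log2 ratio was −4.10 at the smallest, a difference under that bound. BX14 (GRMZM2G127418_T01), a methyltransferase of late steps, had −6.45, −5.78 and −7.30 in Lo5, above background on 1 of 3 arrays, against −4.37, −3.60 and −1.60 in T250 (log2 ratio −3.32 ± 0.76, adjusted p = 0.0264, lost in 6 of 16 alternatives). BX4 and bx2 of the same pathway did not share the pattern of BX5. BX4 had a ratio of 0.63 ± 0.44 (adjusted p = 0.436) and bx2 of 0.16 ± 0.85 (adjusted p = 0.941), while bx1 was on no array of 0 d.

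For terpenes, 1 of 5 tested transcripts with RefSeq names was called, lower in Lo5, and 2 of 2 known only from the study, both higher in Lo5. The median was 0.07 over the RefSeq names and 3.55 over the others. tps23 (GRMZM2G127336_T01), the terpene synthase that makes beta-caryophyllene, had −8.08, −6.21 and −8.24 in Lo5, above background on 1 of 3 arrays, against −1.26, −1.18 and −2.62 in T250 (log2 ratio −5.83 ± 0.66, adjusted p = 0.00141). With the normexp correction this ratio was −2.02, so its size depends on that correction. Geranylgeranyl pyrophosphate synthase 1 (GRMZM2G058404_T01), which makes the precursor of diterpenes, had 1.47, 1.37 and 0.97 in Lo5, against −0.42, −0.07 and −0.69 in T250 (log2 ratio 1.67 ± 0.29, adjusted p = 0.00937), a call lost with the slide block, on the 4 arrays scanned with most of the series and without Lo5 replicate 2, with adjusted p up to 0.191. The terpenoid cyclase described above is the other one higher in Lo5.

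Monolignols are the units of lignin. Here 1 of 7 tested transcripts with RefSeq names was called, higher in Lo5, and 3 of 5 known only from the study, 1 higher and 2 lower. Cinnamoyl-CoA reductase, which commits phenolics to lignin, was found in both directions. The transcript called CCR1 here (GRMZM2G017285_T01) is described in the study as cinnamoyl coa reductase 1 and has no RefSeq symbol. It had −4.20, −6.02 and −4.66 in Lo5, against 0.47, −1.41 and −0.56 in T250 (log2 ratio −4.46 ± 0.64, adjusted p = 0.00391, and −2.47 at the smallest over the alternatives). ccr2 (GRMZM2G131836_T01) had 3.72, 3.44 and 2.60 in Lo5, against 1.81, 1.05 and 1.83 in T250 (log2 ratio 1.69 ± 0.40, adjusted p = 0.0301), a call lost in 10 of 16 alternatives. The hydroxycinnamoyl transferases split in the same way. GRMZM2G178769_T01 was lower in Lo5 (log2 ratio −2.41 ± 0.44, adjusted p = 0.0106) and GRMZM2G025971_T01 was higher in Lo5 (log2 ratio 2.25 ± 0.28, adjusted p = 0.00205). The first of these calls was lost in 2 of 16 alternatives and the other in 1. Of the transcripts for flavonoids and anthocyanins limma called 0 of 12 with RefSeq names and 0 of 2 known only from the study, with 3 and 0 at an unadjusted p under 0.05, and the methods' t-test called 0.

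Glutathione S-transferases had 9 of 24 tested RefSeq names called, 5 higher and 4 lower in Lo5, against 16.3% of all transcripts tested, and 1 of 2 known only from the study, lower in Lo5. Besides gst13, gst28 was higher in Lo5 by a log2 ratio of 2.46 ± 0.42 and gst23 by 1.77 ± 0.44. On the lower side gst35 (GRMZM2G161891_T01) had −0.42, −0.63 and −0.83 in Lo5, against 2.33, 3.21 and 4.42 in T250 (log2 ratio −3.95 ± 0.53, adjusted p = 0.00298), and gst1 had a ratio of −2.92 ± 0.45, gst12 of −2.18 ± 0.26 and gst9 of −1.47 ± 0.35. The family as a whole had no common direction, with a median of 0.24. gst18 (GRMZM2G019090_T01) had 0.42, −0.73 and −0.83 in Lo5, against −7.28, 1.63 and −8.51 in T250. Its call, at 7.51, left out the marked spot of 1.63, and the call was lost with marked spots kept and when arrays of the other days entered the fit. gst42 (GRMZM2G025190_T01), with 2 marked spots, had 3.56, 2.50 and 1.59 in Lo5, against −0.57, 0.51 and 0.64 in T250 (log2 ratio 3.06 ± 0.59, adjusted p = 0.0301). Its adjusted p rose to 0.212 over the alternatives.

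Cytochromes P450 had 2 of 10 RefSeq names called, MAX1b and BX5, both lower in Lo5, and 2 of 13 known only from the study, CYP93D1 and CYP722A1, both higher in Lo5. CYP722A1 (GRMZM2G363429_T01) had 2.91, 3.12 and 2.39 in Lo5, against 1.1, −0.08 and 0.64 in T250 (log2 ratio 2.29 ± 0.47, adjusted p = 0.0241). Its call was lost in 7 of 13 alternatives.

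Expansins and xyloglucan endotransglucosylases (XTH) let walls extend, and 2 of 10 tested RefSeq names and 1 of 7 known only from the study were called, all lower in Lo5, a share near the 16.3% of all transcripts. xth1 (GRMZM2G119783_T01) had −2.50, −1.96 and −2.22 in Lo5, against 1.98, 1.86 and 1.63 in T250 (log2 ratio −4.06 ± 0.27, adjusted p = 0.000172). XTH32 (GRMZM2G388684_T01) had −2.50, −2.14 and −1.44 in Lo5, against 2.93, 2.87 and 3.41 in T250 (log2 ratio −5.10 ± 0.36, adjusted p = 0.000195). The beta-expansin expB2 (GRMZM2G021621_T01) had −4.58, −7.01 and −6.65 in Lo5, above background on 1 of 3 arrays, against −1.52, −0.99 and −2.40 in T250 (log2 ratio −4.44 ± 0.70, adjusted p = 0.00602, and −1.90 with normexp), a call lost in the methods' t-test. The list as a whole did not lie far from 0, with a median of −0.20 over the RefSeq names and −0.33 over the others.

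Cellulose and pectin genes had 2 of 20 RefSeq names called, both higher in Lo5, and 3 of 10 known only from the study, 2 higher and 1 lower. Besides CesA-8, the polygalacturonase PG2C (GRMZM2G160526_T01), of an enzyme family that cuts pectin, had −3.20, −3.30 and −2.62 in Lo5, against −5.68, −6.31 and −5.20 in T250, above background on 2 of 3 arrays (log2 ratio 2.69 ± 0.38, adjusted p = 0.00353), a call lost with normexp, where the ratio was 0.89. A pectin methylesterase inhibitor family transcript (GRMZM2G137676_T01) had −1.68, −2.40 and −2.64 in Lo5, against −5.69, −6.60 and −3.70 in T250, above background on 2 of 3 arrays (log2 ratio 3.09 ± 0.73, adjusted p = 0.0306, lost in 10 of 16 alternatives). A pectin lyase-like transcript (GRMZM2G002034_T01) was lower in Lo5 by a log2 ratio of −2.15 ± 0.43 (adjusted p = 0.0222), with 1 T250 spot marked and the call lost in 5 of 13 alternatives. Class III peroxidases, which cross-link or loosen walls, had 0 of 3 RefSeq names called by limma, with 1 at an unadjusted p under 0.05 and 0 in the methods' t-test, and 3 of 10 known only from the study, all lower in Lo5. GRMZM2G150731_T01 was on in T250 only, close to the background there, at least 2.40-fold lower in Lo5, and lost its call with normexp. GRMZM2G448051_T01 had a ratio of −2.25 at 0 d and 0.70 at 4 d, and GRMZM2G089982_T01 one of −1.69 at 0 d, lost in 7 of 16 alternatives, and 0.26 at 4 d.

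**Figure D3:**
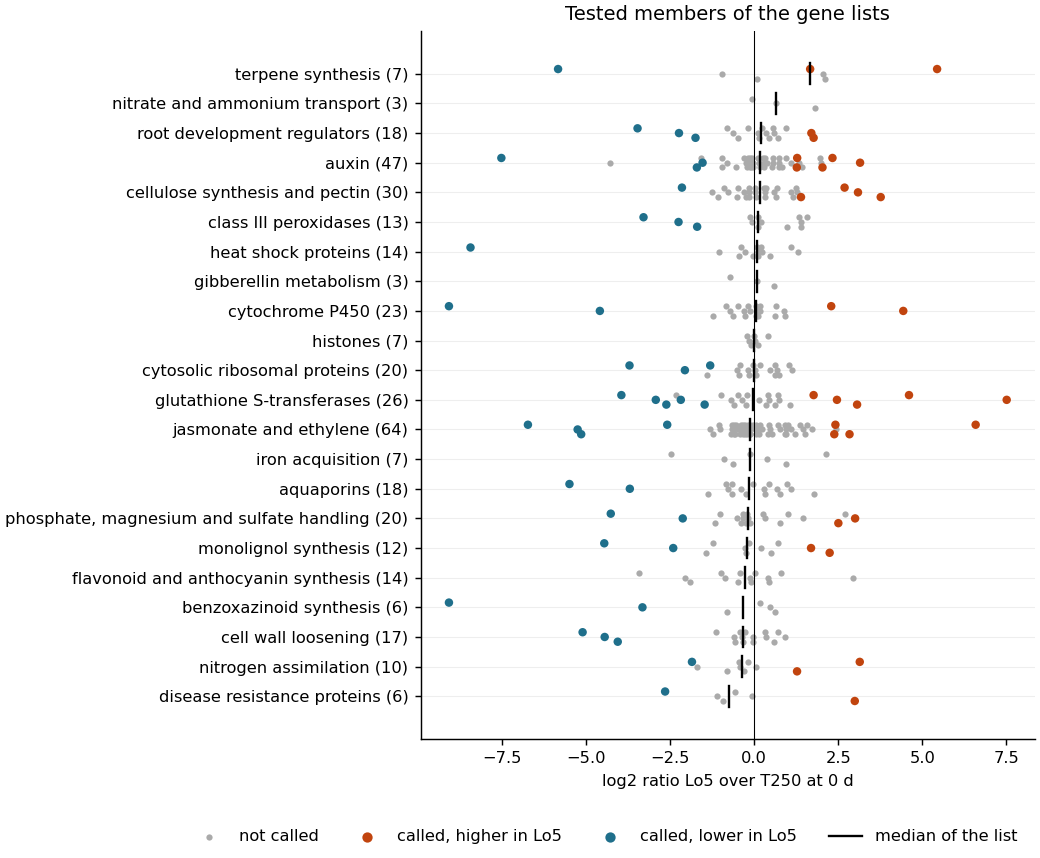
Log2 ratio of Lo5 over T250 at 0 d for every tested member of the gene lists, with the number tested in brackets, called members in colour and a black bar for the median of the list. Names from RefSeq and from the study are pooled in each row. Apart from terpene synthesis, at 1.67, the medians lie within 1 of 0, while single members reach beyond 5 in both directions. For terpene synthesis the median was 0.07 over the 5 RefSeq names alone and 3.55 over the 2 known only from the study.

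Jasmonate and ethylene genes had 7 of 59 tested RefSeq names called, 4 higher and 3 lower in Lo5, and 1 of 5 known only from the study, the allene oxide synthase given above. The ACC oxidase ACO (GRMZM2G072529_T01), the last enzyme of ethylene synthesis, had −0.01, −0.13 and −0.21 in Lo5, against −5.49, −7.58 and −7.04 in T250, where it was above background on 1 of 3 arrays (log2 ratio 6.59 ± 0.54, adjusted p = 0.000346). With the normexp correction this ratio was 3.39, so its size depends on that correction. Its Lo5 values lay within 0.2 log2 units. TIFY15 (GRMZM2G005954_T01), of the family of jasmonate repressors, had −7.88, −7.22 and −8.60 in Lo5, not well above background, against −2.30, −3.05 and −2.61 in T250, at least 14.4-fold lower in Lo5. The ethylene response factor EREB139 (GRMZM2G103085_T01) had −6.58, −8.27 and −7.23 in Lo5, not well above background, against −2.72, −1.62 and −2.31 in T250, at least 19.5-fold lower in Lo5. Over the alternatives the log2 ratio was −1.20 at the smallest for TIFY15 and −1.56 for EREB139, both under these bounds in size. EREB60 was higher in Lo5 by a log2 ratio of 2.38 ± 0.33 at 0 d and of 6.85 at 4 d.

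Auxin genes had 6 of 42 RefSeq names called, 3 higher and 3 lower in Lo5, and 2 of 5 known only from the study, both higher. AUX1 (GRMZM2G000158_T01) had −8.12, −8.63 and −8.71 in Lo5, not well above background, against −0.96, −0.86 and −1.09 in T250, at least 46.3-fold lower in Lo5. Over the alternatives its log2 ratio was −2.58 at the smallest, a difference under that bound. spi1 (GRMZM2G025222_T01), a flavin monooxygenase of auxin synthesis, had −2.47, −3.16 and −3.31 in Lo5, against −7.40, −6.01 and −4.98 in T250, above background on 2 of 3 arrays (log2 ratio 3.15 ± 0.62, adjusted p = 0.0148). That call was lost with the replicate block, in the methods' t-test and without Lo5 replicate 1, and the ratio was 1.13 at the smallest. AUX22 (GRMZM2G130953_T01), also named BIF1 and a repressor of auxin responses, had 0.90, 1.14 and 1.18 in Lo5, against −1.33, −1.0 and −0.55 in T250 (log2 ratio 2.03 ± 0.30, adjusted p = 0.0044). No common direction was seen in the list, whose median was 0.12. Of the gibberellin genes limma called 0 of 3 tested, with 0 at an unadjusted p under 0.05 and 0 in the methods' t-test.

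Regulators of root development had 3 of 14 RefSeq names called, 2 higher and 1 lower in Lo5, and 2 of 4 known only from the study, both lower. SCR (GRMZM2G131516_T01), the scarecrow gene of endodermis formation, had 0.51, 0.81 and 0.95 in Lo5, against −1.12, −0.91 and −1.01 in T250 (log2 ratio 1.77 ± 0.26, adjusted p = 0.00418). rtcs (GRMZM2G092542_T01, also LOB23), which maize needs to form seminal and crown roots, had −6.16, −5.32 and −6.15 in Lo5, above background on 2 of 3 arrays, against −4.30, −3.37 and −3.26 in T250 (log2 ratio −2.23 ± 0.40, adjusted p = 0.0105). With normexp the ratio was −0.55 (adjusted p = 0.295), and the call was lost in the methods' t-test too. GRAS76 (GRMZM2G028438_T01), of the family of SCR, had −2.88, −3.31 and −4.23 in Lo5, against 0.11, −0.31 and 0.18 in T250 (log2 ratio −3.47 ± 0.40, adjusted p = 0.0016). The homeobox gene wox13B was higher in Lo5 by a log2 ratio of 1.70 ± 0.34.

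Aquaporins, the water channels of membranes, had 2 of 18 tested members called, both lower in Lo5. The plasma membrane aquaporin PIP1-1 (GRMZM2G174807_T01) had 0.87, 0.64 and 0.39 in Lo5, against 6.91, 5.34 and 5.49 in T250 (log2 ratio −5.49 ± 0.52, adjusted p = 0.00138, with T250 replicate 3 marked), and was 45.0-fold lower in Lo5. The vacuolar TIP4-4 (GRMZM2G093090_T01) had −3.83, −3.70 and −4.29 in Lo5, against −1.72, 0.51 and 0.47 in T250 (log2 ratio −3.70 ± 0.63, adjusted p = 0.00808), a call lost in the methods' t-test. Heat shock proteins had 1 of 11 RefSeq names called, the chaperone HSP90-1, given with the transcripts on in T250 only, and limma called 0 of 3 known only from the study, with 0 at an unadjusted p under 0.05 and 0 in the methods' t-test. Ribosomal proteins of the cytosol had 3 of 18 RefSeq names called, rps27, rps10 and rpl10, all lower in Lo5, a share near the 16.3% of all transcripts. rps10 had a ratio of −2.06 ± 0.34, rps27 lost its call in 7 of 16 alternatives, and rpl10, off on all Lo5 arrays and at least 3.51-fold lower there, lost it with normexp. limma called 0 of 7 histones, with 0 at an unadjusted p under 0.05 and 0 in the methods' t-test. Disease resistance proteins had 2 of 6 called, all known only from the study, 1 higher and 1 lower in Lo5, and both calls were lost with normexp.

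The RT-PCR reference genes of the study were read as well. The polyubiquitin transcript (GRMZM2G118637_T01) had 3.24, 1.52 and 1.85 in Lo5, against 6.68, 6.11 and 6.07 in T250 (log2 ratio −4.08 ± 0.49, adjusted p = 0.00188), and its ratio at 4 d was −4.39. The probe was thus 16.9-fold dimmer in Lo5 at 0 d, with no overlap between the values of the lines. The elongation factor transcript (GRMZM2G153541_T01) had 4.12, 4.32 and 5.03 in Lo5, against 4.62, 5.02 and 4.42 in T250, and was not tested because 3 of its spots were marked.

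The transcripts on in one line only were chosen by their detection at 0 d, so their levels at 0 d are a description. Folds are bounds, the mean of the line that is on over the floor of the other line's arrays, where the floor of an array is its dimmest probe well above background or the probe itself if brighter. They hold for the background correction used here and are not minima over the alternatives. There the log2 ratio of eIF-5, given below, was 1.78 at the smallest. The 464 on in Lo5 only were at least 6.22-fold higher in Lo5 in the median, 34 of them at least 100-fold. The 725 on in T250 only were at least 11.2-fold lower in Lo5 in the median, 81 of them at least 100-fold. On these 6 arrays T250 had both more of these transcripts and more of large size, but the counts depend on single arrays. Without T250 replicate 2 they were 704 for Lo5 only and 764 for T250 only, and without T250 replicate 1 they were 650 and 1268. Partial detection went the other way, with 1950 on all Lo5 arrays and some T250 arrays, against 958 on all T250 arrays and some Lo5 arrays.

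On in Lo5 only, with the brightest mean level of that set, was rf2 (GRMZM2G058675_T01), a mitochondrial aldehyde dehydrogenase known as a restorer of male fertility. It had 4.05, 3.85 and 3.88 in Lo5, against −8.12, −9.17 and −7.34 in T250, none of them well above background, and was at least 1319-fold higher in Lo5. The spot of Lo5 replicate 1 was marked. A methyltransferase family transcript (GRMZM2G405503_T01) followed among the named ones, with −0.46, −0.30 and −0.19 in Lo5, against −7.37, −8.27 and −8.44 in T250, at least 69.9-fold higher in Lo5. CCamK (GRMZM2G062772_T01), the calcium and calmodulin dependent kinase of root symbiosis, had −0.28, −0.44 and −0.90 in Lo5, against −7.90, −9.08 and −8.65 in T250, at least 59.7-fold higher in Lo5. At 4 d all 3 were again on in all Lo5 arrays and none of T250. At 1 d the methyltransferase and CCamK were on no T250 array, but rf2 was on in 2 of 3, at up to 3.62, near its level in Lo5.

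Further down stood a nucleoside triphosphate hydrolase family transcript (GRMZM2G303752_T01, at least 54.6-fold higher in Lo5), the plasmodesmata callose-binding protein 5 (GRMZM2G102322_T01, at least 41.4-fold), PPR10 (GRMZM2G177169_T01, at least 24.7-fold), an RNA-binding protein of the chloroplast, the translation factor eIF-5 (GRMZM2G165917_T01, at least 19.4-fold) and a MADS-box factor (GRMZM2G012898_T01, at least 17.3-fold). PPR10 had −1.89, −1.82 and −1.73 in Lo5, against −6.41, −7.18 and −8.39 in T250. Several of these were on in T250 on other days. The callose-binding protein was on in all 3 T250 arrays of 1 d, at −3.78 to −0.87, and on 1 of 4 d, PPR10 on 1 and the MADS-box factor on 2 of 1 d, and the hydrolase on 2 of 4 d. Of this set, eIF-5 alone was on no T250 array of either day.

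On in T250 only, EREB36 (GRMZM2G069082_T01), an ethylene response factor family member, had −5.65, −7.40 and −7.04 in Lo5, not well above background, against 5.03, 4.24 and 3.83 in T250, at least 1630-fold lower in Lo5. All its T250 spots were marked, so it was not tested at 0 d, and at 4 d its ratio was −12.31 (adjusted p = 0.00033). TPS4 (GRMZM2G527891_T01) had −8.04, −8.42 and −8.73 in Lo5, against 3.02, 2.66 and 3.3 in T250, at least 725-fold lower in Lo5, with all T250 spots marked and a ratio of −11.98 at 4 d. For both the Lo5 arrays lay at the background and the T250 arrays in the bright range of the array. HSP90-1 (GRMZM2G024668_T01), a chaperone, had −7.96, −8.30 and −8.69 in Lo5, against 0.51, 0.46 and −0.22 in T250, at least 108-fold lower in Lo5.

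SUMO1b (GRMZM2G082390_T01), a small protein modifier, had −7.66, −8.27 and −8.68 in Lo5, against −0.03, −0.07 and −0.02 in T250, at least 88.5-fold lower in Lo5. Its T250 arrays lay within 0.1 log2 units. hk3 (GRMZM2G158252_T01), a cytokinin receptor kinase, had −6.42, −8.53 and −7.43 in Lo5, against −0.65, −0.19 and 0.32 in T250, at least 80.5-fold lower in Lo5. CYP92C6 (GRMZM2G139467_T01), a cytochrome P450 of homoterpene synthesis, had −7.78, −8.20 and −8.71 in Lo5, against −1.34, 1.19 and 2.78 in T250, at least 167-fold lower in Lo5. Both had T250 replicates 2 and 3 marked. A homologue of a downstream target of AGL15 (GRMZM2G033746_T01) was at least 235-fold lower in Lo5 at 0 d, with T250 replicates 2 and 3 marked, yet was on in all arrays of both lines at 4 d. BX5 is the last of the set.

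**Figure D4:**
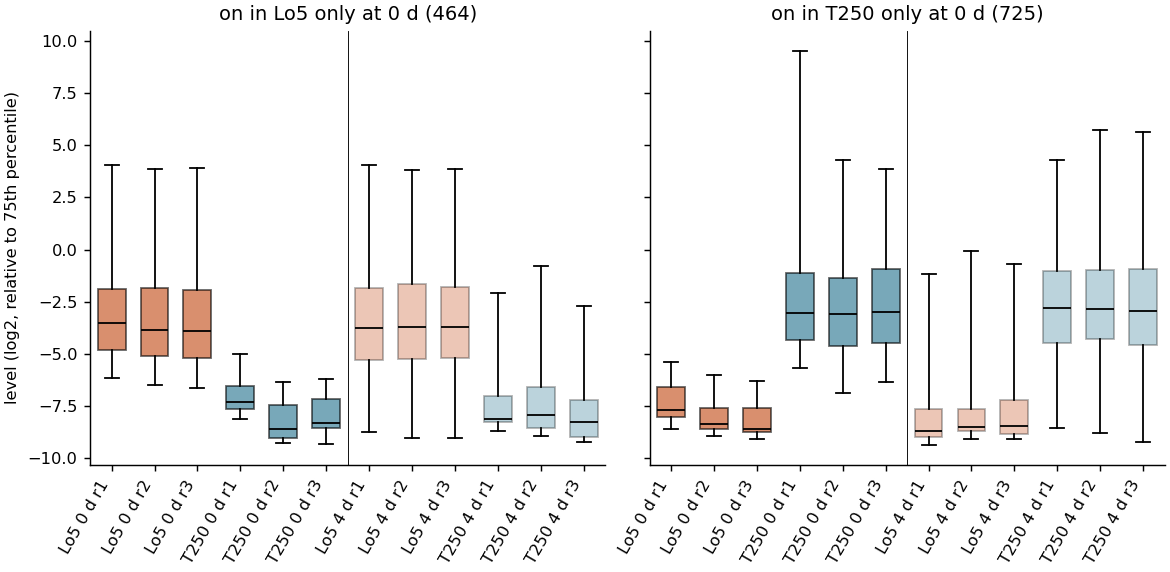
Levels on each array of 0 d and 4 d (log2, 75th percentile at 0) of the 464 transcripts on in Lo5 only and the 725 on in T250 only at 0 d, with boxes for quartiles, bars for medians and whiskers over the whole range. The arrays of 4 d, which were not used to choose the transcripts, show the same line high in both panels.

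The arrays of 4 d come from other seedlings of the same lines and were not used to call or sort the transcripts of 0 d. Of the 464 transcripts on in Lo5 only, 286 (61.6%) were again on all Lo5 arrays and no T250 array at 4 d, a pattern that 1.47% of all probes showed then. Of the 725 on in T250 only, 530 (73.1%) repeated it, against 2.19% of all probes. The reverse pattern was shown by 0 transcripts of either set, while 14 and 20 were on in both lines at 4 d. At 4 d limma called 6963 of 27843 transcripts (25%). Of the 4245 calls of 0 d, 4083 were tested at 4 d, 4033 of them (98.8%) had the same sign and 3452 (84.5%) were called in the same direction. Of the transcripts tested but not called at 0 d, 74.0% had the same sign at 4 d and 12.4% were called with it. The median size of the calls was 2.64 at 0 d and 2.73 in the same direction at 4 d.

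**Figure D5:**
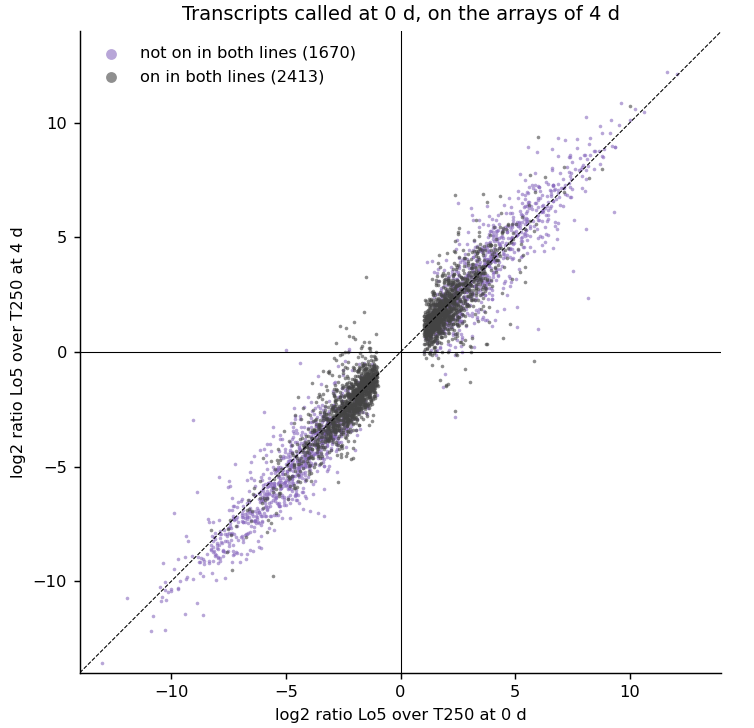
Log2 ratio of Lo5 over T250 at 0 d (x axis) and at 4 d (y axis) of the 4083 transcripts called at 0 d and tested at 4 d, with a dashed line for equal ratios. The 2413 transcripts on in both lines and the 1670 others lie along the dashed line, and few cross to the opposite sign.

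A call in the opposite direction at 4 d was found for 3 transcripts, all higher in Lo5 at 0 d, which were picked for this after their values were seen. GRMZM2G412598_T01 had −2.80, −4.15 and −3.70 in Lo5, against −4.62, −6.79 and −6.42 in T250 at 0 d, and −5.59, −4.0 and −4.90 in Lo5, against −1.79, −1.63 and −2.56 in T250 at 4 d. The others were GRMZM2G090652_T01, of the GDSL lipase family, with ratios of 1.86 at 0 d and −1.51 at 4 d, and GRMZM2G701300_T01 with 1.74 and −1.23. The difference between the days was tested in one model, and its adjusted p was 0.196, 0.272 and 0.156 for the 3 transcripts. Over all 24865 transcripts tested on both days limma found 0 with an adjusted p of up to 0.05 for that difference and 1503 with an unadjusted p under 0.05.

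With that doubted array of Lo5 (replicate 3) left out, limma at 1 d called 3549 of 26217 transcripts (13.5%). Of the calls of 0 d, 3914 were tested there, 98.2% had the same sign and 2240 were called in the same direction. With that array kept, 3491 were tested, 95.9% had the same sign and 120 were called in the same direction. On that array, 59 of the 464 transcripts on in Lo5 only at 0 d were well above background, and 643 of the 725 on in T250 only.

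Positions could be taken for 17196 transcripts from their order in the RefSeq annotation of the B73 reference, whose build differs from that of the array, so only neighbours were read and no coordinates. Of the transcripts on in Lo5 only, 2.48% had a direct neighbour of the same kind, against 1.86% of the other transcripts with such a neighbour, and of those on in T250 only 4.24%, against 3.77%. For calls higher in Lo5 the shares were 12.3% and 9.21%, and for calls lower in Lo5 15.7% and 12.6%. The longest runs held 2, 2, 3 and 4 transcripts in a row.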

How the data were processed

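Root RNA of 3 samples of Lo5 and 3 of T250 at 0 d was labelled with Cy3 and hybridized in 1 colour, each on a sub-array of a custom Agilent array. The authors deposited the intensity of each spot as written by Agilent Feature Extraction 10.5.1.1, corrected for background, with marks for uneven, outlying and well measured spots, and a series table in which the intensity of each array is multiplied by 1 factor, giving a common 75th percentile. Here each processed intensity was taken to log2 and the array's own 75th percentile, over its transcript probes, was subtracted, and marked spots were left out of the fits. limma 3.58.1 in R 4.3.3 compared the 6 arrays in one fit with no block, two-sided, with Benjamini-Hochberg adjustment over all 26065 transcripts tested. The methods' t-test is a t-test with equal variances on the same values, called at their threshold (unadjusted p not above 0.01, log2 ratio 1 or more in size) or after adjustment. Tables were made in Python 3.11.15 with pandas 2.3.3 and numpy 2.4.6. The members, lists and tests were chosen with earlier results of these data known.

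The named transcripts are the 10 highest and 10 lowest named ratios among calls on in both lines and unmarked, up to 4 called members by size of each list, the 8 brightest named transcripts on in each line only, the nutrient transporters, enzymes and regulators that the study names with its RT-PCR references, and those beside the threshold. Other members stand where a group is described. Names come from the study and from RefSeq, to which 18726 transcripts were matched, 519 of them to several genes and then not used for lists. Precision is limited by the 3 arrays per line, and p-values measure the spread between pools of 3 seedlings. In a test on simulated data with the spread of these 6 arrays, limma recovered 10 of 50 transcripts when the simulated log2 change was 2 and 32 of 50 when it was 4, with 5 false calls among 26065. Only 50 transcripts were changed at each simulated size of 1.5, 2, 3 and 4, far fewer than the 4245 called in the data. The adjustment is stricter when few transcripts change, so these rates do not give the sensitivity of the real fit. Among the arrays of 0 d only 1 slide held both lines, so a slide block was fitted over 17 arrays. Alternatives were other sets of arrays, the t-test, blocks, quantile and normexp (offset 50) processing, marked spots kept, the series table, other filters and each array left out. A fit on the 4 arrays scanned with most of the series was chosen after seeing the data.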

Additional observations from a re-analysis of the deposited data

How the results depend on the processing

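The count of 4245 calls ran from 2599 to 4853 as each array was left out, lowest without Lo5 replicate 2, and that of 2472 calls on in both lines from 1184 to 2744. The count of all calls was 2378 when only probes on all 6 arrays were fitted, since fewer were tested. The methods' t-test left 2517 calls after adjustment, 1371 of them on in both lines, and 3154 at its own threshold. The other alternatives kept both counts within 1.5 times. The share higher in Lo5 was 47.1%, and 50.3% with normexp and 49.8% with quantile normalization. Among transcripts on in both lines it was 35.4% without Lo5 replicate 1 and 56.4% without T250 replicate 1, against 47.5%.

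Same-numbered arrays of the lines deviated together for replicate 1 (r = 0.28) but not for 2 and 3 (r = −0.14 and −0.18), so the numbers were not taken to pair the samples. Across numbers, Lo5 replicate 3 went with T250 replicate 2 (r = 0.43) and Lo5 replicate 2 with T250 replicate 3 (r = 0.24). A pairing under other numbers was not tested, and the main fit uses none. With the replicate number as a block 3488 transcripts were called, 1808 of them on in both lines.

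The 464 transcripts on in Lo5 only were 512 to 704 as each array was left out, and 286 when the rule was applied to the arrays of 0 d and 4 d together, which asks for more arrays. The 725 on in T250 only were 764 to 1268, and 1382 when 2 arrays sufficed to be on, a looser rule.

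Of 79 called transcripts that the naming rule chose, 0 changed direction in the alternatives and 47 kept an adjusted p of up to 0.05 in every one. The block ended it for 15, the t-test for 21, normexp for 10, marked spots for 1 and at least 1 array left out for 18. Neither of the transcripts that changed sign had been called: NRT1.5 had a ratio of −0.074 with the slide block, and LBD38 one of −0.024 on the 4 arrays scanned with most of the series, and between −0.16 and 0.30 as each array was left out. The causes were not tested. Below about −6 on the log2 scale, where the dimmest probes well above background lie, a level rests on the background, so ratios against lines that are off are given as bounds. These bounds hold for the background correction used here and not for every alternative.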

Other observations

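Transcription factors were read by their RefSeq family symbols, families that were picked after the data were seen. Over 14 families 236 members were tested and 32 were called (13.6%), 16 higher and 16 lower in Lo5, against 16.3% of all transcripts. WRKY factors, known for defence responses, had 0 of 17 called by limma, with 2 at an unadjusted p under 0.05 and 0 in the methods' t-test. MYB and related factors had 6 of 44 called, 4 higher and 2 lower in Lo5. The bHLH family had 4 of 27 called, 3 higher in Lo5 and 1 lower, which is bHLH20. MYB51 (GRMZM5G803355_T01) had −4.13, −4.31 and −4.31 in Lo5, against −0.98, −2.41 and −2.24 in T250, and its log2 ratio of −2.37 ± 0.42 (SE, n = 3 each, limma adjusted p = 0.00937) stood at −2.95 at 4 d. bHLH20 (GRMZM2G414252_T01) had −2.84, −2.71 and −3.09 in Lo5, against −0.97, −0.45 and −0.15 in T250, with a log2 ratio of −2.36 ± 0.31 (limma adjusted p = 0.00269). In both every Lo5 array lay below every T250 array.

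The bZIP factors had 4 of 25 called, 1 higher and 3 lower in Lo5. bZIP76 (GRMZM2G134863_T01) was on in T250 only, with −7.72, −8.42 and −8.52 in Lo5, not well above background, against −0.76, −1.27 and −1.75 in T250. The heat shock factor Hsf03 (GRMZM2G164909_T01), which belongs to the regulators of heat shock genes, was on in T250 only too, with −7.68, −8.21 and −8.61 in Lo5, against −3.40, −2.97 and −3.99 in T250. The YABBY factor YAB5 (GRMZM2G116646_T01) was on in Lo5 only, with −4.84, −5.65 and −6.16 in Lo5, against −7.61, −7.75 and −7.32 in T250, a pattern close to the background on both sides. The bZIP factor bZIP7 (GRMZM2G006578_T01), on in both lines, had −1.19, −1.36 and −2.09 in Lo5, against −3.09, −4.18 and −3.61 in T250, a log2 ratio of 2.08 ± 0.40 (limma adjusted p = 0.013), and 3.44 at 4 d.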
